A study of Mus musculus with 7 samples.

Results

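Plasmacytoid dendritic cells (pDCs) were examined in 7 single-cell RNA libraries of mouse liver. A barcode was taken as a pDC when it held over 1000 unique molecular identifiers (UMIs, the counted RNA molecules), at most 20% of them mitochondrial, and when Siglech, Ccr9, Cox6a2 and Klk1 together gave at least 4 UMIs and at least 0.15% of all UMIs other than mitochondrial and haemoglobin ones. The 3 C1q genes of macrophages had to stay under 0.5% of the same base. This gate kept 462 of the 100676 barcodes that passed the UMI and mitochondrial limits (the kept cells). The members were thus chosen by measured levels of the 4 gate genes and the C1q genes, so these levels and the contrasts of the same cells with other cells are given as descriptions, without a test.

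The libraries came from livers dissociated with collagenase and were made with a droplet kit that counts the 3′ ends of polyadenylated RNA. The labels call every library liver of a hepatoblastoma murine model. The study describes ABC-Myc tumors (Alb-Cre::CAG-MYC, in which Cre is expressed from the albumin promoter of hepatocytes) and healthy livers, but the labels give no genotype, age, sex or treatment for any library. The label of NEJ709 also names NEJ634 in its description. The study's text calls NEJ634, NEJ687, NEJ709 and NEJ723 tumor samples, but no label does. By its count of tumors and healthy livers, NEJ638, NEJ654 and NEJ677 would be the healthy ones, though it names none of them. Groups were taken from the labels only, so the libraries were placed in no group. Each is described on its own, and no p-value is given. Values for all 7 are listed in the order NEJ634, NEJ638, NEJ709, NEJ723, NEJ654, NEJ677 and NEJ687.

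pDCs are the dendritic cells that specialise in secreting type I interferon after the endosomal receptors TLR7 and TLR9 meet viral RNA or DNA. They carry a large secretory apparatus, arise in bone marrow under the control of the E protein TCF4 with help from SPIB, IRF8, RUNX2 and BCL11A, and share several genes with the B lineage. In contrast to conventional dendritic cells (cDCs), they circulate in blood and present antigen poorly until they are activated. Of the gate genes, Siglech encodes a sialic acid-binding lectin of mouse pDCs, Ccr9 a chemokine receptor, Cox6a2 a subunit of cytochrome c oxidase otherwise known from heart and skeletal muscle, and Klk1 a tissue kallikrein, a secreted serine protease.

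The 250 bases before the RefSeq start of 3 of the gate genes and of Spib are shown because these genes define the cells and TCF4 binds the E-box, CANNTG. The coordinates are those of GRCm38.p6, the letters read 5′ to 3′ on the strand of the gene, and the E-boxes found by search are in capitals. Siglech lies at chr7:55767934-55768183 on the plus strand, Ccr9 at chr9:123766961-123767210 plus, Klk1 at chr7:44225110-44225359 plus and Spib at chr7:44532072-44532321 minus.
Siglech: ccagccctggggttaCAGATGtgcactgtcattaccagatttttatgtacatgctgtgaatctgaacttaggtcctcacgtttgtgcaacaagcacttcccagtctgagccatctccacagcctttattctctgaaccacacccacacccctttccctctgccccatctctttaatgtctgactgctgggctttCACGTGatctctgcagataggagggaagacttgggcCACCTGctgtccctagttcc
Ccr9: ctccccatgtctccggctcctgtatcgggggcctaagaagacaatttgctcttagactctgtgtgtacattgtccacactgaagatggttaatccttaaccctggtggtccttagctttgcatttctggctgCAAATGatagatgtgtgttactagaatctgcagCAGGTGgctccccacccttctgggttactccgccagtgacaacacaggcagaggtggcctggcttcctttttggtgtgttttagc
Klk1: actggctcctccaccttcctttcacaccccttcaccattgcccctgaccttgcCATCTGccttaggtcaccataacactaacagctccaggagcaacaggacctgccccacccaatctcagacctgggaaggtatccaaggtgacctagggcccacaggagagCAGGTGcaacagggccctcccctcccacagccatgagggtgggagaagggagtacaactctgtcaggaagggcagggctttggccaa
Spib: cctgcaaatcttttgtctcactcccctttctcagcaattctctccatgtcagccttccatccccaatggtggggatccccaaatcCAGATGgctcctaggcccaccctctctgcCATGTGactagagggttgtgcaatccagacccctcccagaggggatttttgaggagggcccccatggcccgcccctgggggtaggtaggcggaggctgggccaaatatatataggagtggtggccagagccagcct

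Siglech held 3 E-boxes in this window and the other 3 genes held 2 each. An E-box was present in 66.0% of the 27025 promoters of the same length in the table, so most genes share this feature. CACCTG, the E-box form given as its own letters or as CAGGTG on the other strand, was present in Siglech, Ccr9 and Klk1 and in 17.1% of all promoters.

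Before the results, the libraries in which the label of the cells was in doubt are described. In NEJ638, 7 of the 102 gated cells were led by exocrine pancreas genes. Between 33.1 and 57.3% of their base came from 14 exocrine genes such as Ctrb1 (chymotrypsinogen), Try4 (a trypsin) and Clps (colipase). They entered the gate through 12 to 68 UMIs of Klk1 each and held 0 UMIs of Siglech, Ccr9, Cox6a2 and Spib. They go against the name of pDC and are counted among the 462, since the gate takes them. They held 7.67% of the UMIs of the gated cells of NEJ638, and leaving them out multiplied the level of a gene they lack by 1.083. Exocrine-led cells were gated in none of the other 6 libraries.

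In NEJ634 the gated cells were shallow and mixed. Their median was 2212 UMIs and 6 gate UMIs, against medians of 2679 to 8608 UMIs and 15 to 40 gate UMIs in the other libraries. All 27 members with exactly 4 gate UMIs were from NEJ634, and 39 of its 105 members had over 5% of their UMIs from haemoglobin genes, against 0 to 4 members of each other library. Outside the gate, 888 kept cells of NEJ634 and 1347 of NEJ709 held 1 UMI of a gate gene, against 39 to 100 in the other libraries. The share of all Siglech UMIs of kept cells that lay in the gated cells was 35.7% in NEJ634 and 12.1% in NEJ709 and between 81.1 and 95.2% in the other 5. In barcodes too small to be cells, which hold free RNA, the gate genes made up 0.000731 to 0.00909% of UMIs.

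The edge of the gate can be seen in Spib and Bst2, which it did not use. The 27 members at 4 gate UMIs were all of NEJ634, and 40.7% of them held a UMI of Spib and 81.5% a UMI of Bst2. Of the cells of NEJ634 just outside, with 3 gate UMIs and C1q under the limit, 23 (22.1%) held Spib and 68 (65.4%) Bst2, and at 1 gate UMI the shares were 9.24 and 40.8% of 833 cells. The other 6 libraries had 2 to 5 cells each at 3 gate UMIs. No member was gated in more than 1 library under the same barcode, and 20 members had a barcode that also held over 500 UMIs in another library.

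The gated cells were 105, 102, 5, 39, 80, 100 and 31 in number. As a share of the kept cells they were 0.258, 1.6, 0.0233, 0.322, 1.41, 1.46 and 0.412%, with exact 95% binomial intervals that cover counting error only. The kept barcodes numbered 40660, 6377, 21482, 12106, 5674, 6846 and 7531. How many of them are cells was not tested, and the shares depend on it. NEJ638, NEJ677 and NEJ654 were the highest and their intervals overlapped, from 1.12% to 1.94% in all. NEJ687, NEJ723 and NEJ634 followed, with overlapping intervals from 0.211% to 0.584%. NEJ709 was lowest, with an interval of 0.00756 to 0.0543%. The highest share was 68.7 times the lowest, and 6.19 times without NEJ709. Without the exocrine-led cells NEJ638 held 95 pDCs, or 1.49%.

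The order changed when pDCs were counted against gated B and T cells. These counts leave out all other kept barcodes of a library, such as erythroid cells, hepatocytes and granulocytes. B cells were gated in the same way with B-lineage genes that include Cd79a, Cd79b and Ms4a1, and T cells with their own genes. There were 98.1, 27.9, 9.26, 8.26, 11.2, 9.07 and 21.2 pDCs per 100 B cells. NEJ634, among the lower libraries in share of kept cells, was highest here, and its interval of 74.2 to 130 overlapped with that of no other library. Against 100 T cells the values were 52.5, 35.5, 11.9, 15.4, 16.8, 16.8 and 13.4, again highest in NEJ634 and NEJ638. Both orders depended on the gate. With at least 8 gate UMIs, NEJ634 kept 33 of its 105 cells and NEJ638 92 of its 102, which gave 30.8 (20.2 to 45.9) and 25.1 (19.8 to 31.7) pDCs per 100 B cells and 16.5 and 32.1 per 100 T cells, so that the intervals overlapped and the order against T cells turned. With the UMI minimum raised to 2000, NEJ634 kept 62 cells and stood at 91.2 (63.6 to 130.6) per 100 B cells. NEJ638 stood at 106.8 (79.0 to 144.5) there, so the intervals overlapped and the order against B cells was not settled.

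**Figure D1:**
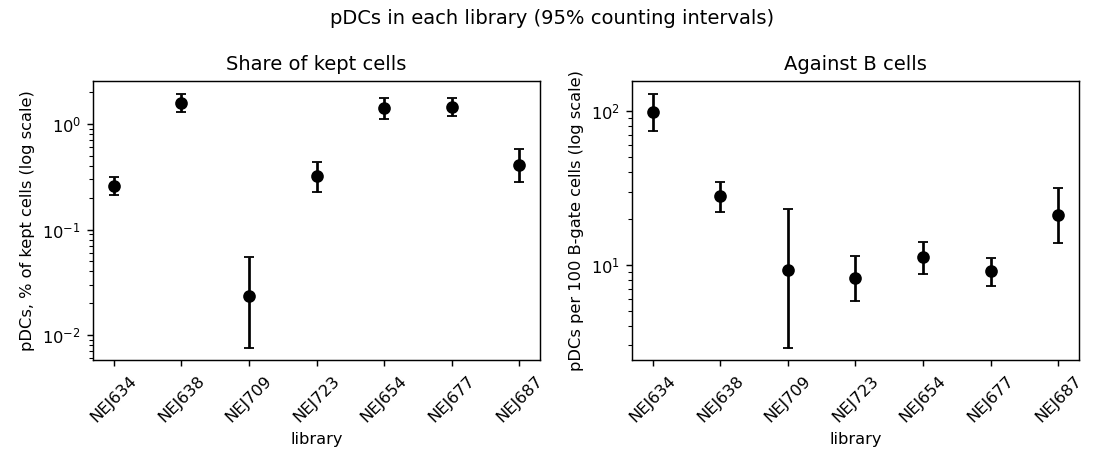
Share of gated pDCs among kept cells (left, %) and number of pDCs per 100 gated B cells (right) in each library, both on log axes, with 95% counting intervals as bars. NEJ709 stood lowest at 0.0233% of kept cells, and NEJ634 stood highest per 100 B cells at 98.1.

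The gate used the sum of its 4 genes, so their detection describes the members only. Siglech had a UMI in 432 of the 462 cells, Ccr9 in 405, Cox6a2 in 395 and Klk1 in 266. All 4 were detected in 195 cells, 3 in 192, 2 in 67 and 1 in 8, and 7 of those 8 were the exocrine-led cells. The share with 3 or 4 of the genes was 63.8% in NEJ634 and between 80 and 92.5% in the other libraries. Spib, a marker that was not gated on, had a UMI in 330 cells.

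Levels are given below as UMIs summed over the gated cells of a library per 1000000 UMIs (CPM), and are compared for the same gene between cells, never between genes. Siglech stood at 1031, 1488, 1929, 1474, 1230, 1450 and 1623 CPM in pDCs and at 0.691 to 8.52 CPM in the other kept cells. The gate used Siglech, and its level was lowest in NEJ634 and highest in NEJ709. Ccr9 stood at 990, 1912, 1082, 845, 609, 642 and 1089 CPM, against 0.469 to 6.80 CPM in other kept cells. Cox6a2 stood at 739, 1254, 776, 1532, 1719, 1947 and 1111 CPM, against 0.893 to 6.20 CPM. Ccr9 was highest in NEJ638 and lowest in NEJ654 and NEJ677, the libraries in which Cox6a2 was highest. The gate summed both genes, so their levels depend on the choice of cells, and this contrast is a description only. Klk1 stood at 454, 1122, 658, 667, 1084, 648 and 1374 CPM, and in NEJ638 it was at 417 CPM without the 7 exocrine-led cells. NEJ687 and NEJ654 were then the highest for Klk1, and NEJ638 and NEJ634 were the lowest, at the close values of 417 and 454 CPM.

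Other members of the gene families of Cox6a2 and Klk1 were not used by the gate. Of 11 listed respiratory chain isoforms, 7 were compared with other kept cells, and none but the gated Cox6a2 was past 4-fold. Cox6a1, the form of the same subunit in most tissues, was at 244, 257, 212, 78.7, 221, 222 and 183 CPM in pDCs, with a median log2 ratio of -0.33. Cox4i2 and Cox8b held 0 UMIs in pDCs, and Cox7a1, another muscle form, stood at 0 to 3.39 CPM. Of 14 listed kallikrein genes, 9 held 0 UMIs in pDCs, and Klk1b27 was at 74.6, 32.9, 118, 91.1, 118, 106 and 102 CPM. Klk1b27 is a close copy of Klk1, so the split of reads between them is uncertain.

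**Figure D2:**
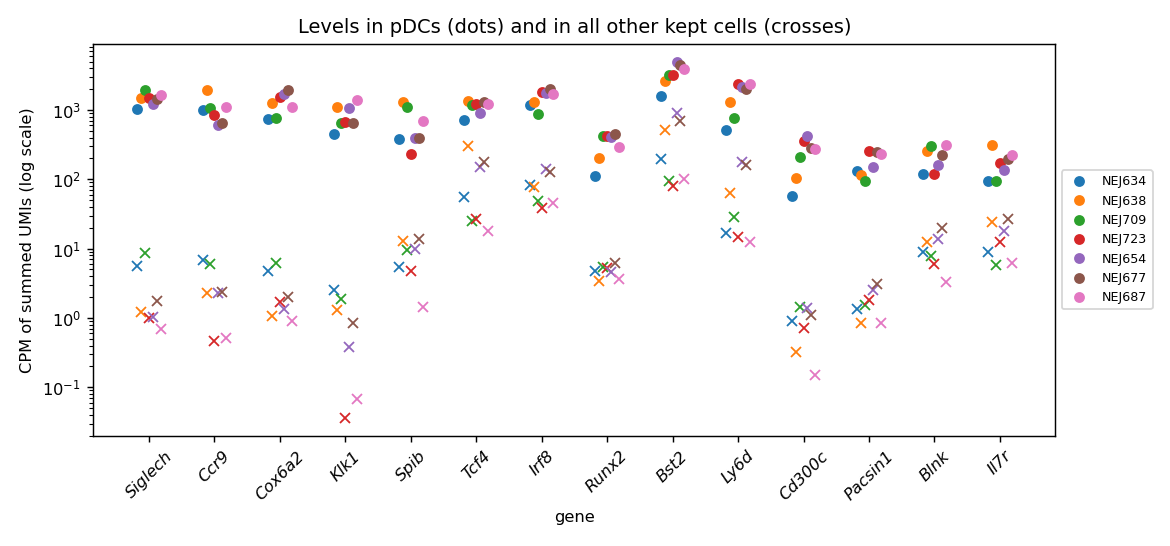
Level of 14 genes in CPM (log axis) in the pDCs (dots) and in the other kept cells (crosses) of each of the 7 libraries. The dots lay above the crosses of the same library for all 14 genes, from Siglech at 1031 to 1929 CPM against 0.691 to 8.52 CPM to Tcf4 at 726 to 1336 CPM against 18.2 to 304 CPM.

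Ratios to other cells were computed within each of the 6 libraries with at least 20 pDCs, which leaves out NEJ709. The log2 ratio had 10 CPM added to both levels, genes of at least 20 CPM in either set of cells in every library were compared, and a gene was called when it was past 4-fold in the same direction in all 6. Against all other kept cells, 76 of 4639 genes were higher in pDCs (1.64%) and 0 were lower (0%), and the median log2 ratio of all 4639 was 0.22. Without NEJ634, 103 genes were higher and 28 lower, among them Hbb-bt, Ccl5, Cxcl2, Cd5l, C1qc and Il1b, so that NEJ634 alone kept them from the call. C1qc was limited by the gate itself.

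Of 20 pDC markers outside the gate, 18 were compared and 15 of them were higher, with a median log2 ratio of 3.52. Over all genes compared, 1.64% were higher. The list was chosen with earlier results of these data known. Bst2, which tethers virus particles to the surface and is an interferon-induced gene in most other cells, was at 1577, 2600, 3175, 3238, 4959, 4430 and 3947 CPM in pDCs. In other kept cells it was at 79.2 to 919 CPM, and the median log2 ratio was 2.80. Its level was lowest in NEJ634. Ly6d, a surface protein also made by early B cells, stood at 515, 1320, 776, 2394, 2182, 2023 and 2398 CPM. Cd300c, an activating receptor, stood at 57.6, 105, 212, 356, 423, 282 and 278 CPM, where the other kept cells reached 1.44 CPM at most. Pacsin1, a membrane-bending protein that is otherwise mostly neuronal, stood at 132, 115, 94.1, 253, 149, 246 and 234 CPM. Spib is described with the transcription factors below. The lectin Cd209d, the inhibitory receptor Lair1, Cd7, Cd4, Lag3, Ly6c2, Mctp2, Cyb561a3, Smim5 and Atp1b1 were the other markers called, with median log2 ratios of 2.83 to 4.27. The 3 compared markers that were not called were Klra17, at 20.7 CPM in NEJ723 and 212 CPM in NEJ687, Upb1 and Pltp. Cd8a, found on part of mouse pDCs, reached 17, 26.3, 0, 29.0, 124, 32.9 and 0 CPM, and Havcr1 stayed at or under 54.6 CPM.

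Of the other genes, the 20 with the highest median ratio included several without a place in the lists. Gm21762, a gene with no assigned function, had the highest value, 4.93, and stood at 57.6, 299.5, 70.6, 95.2, 313, 302 and 299.7 CPM, against at most 0.912 CPM in the other kept cells of any library. Lrp8, a receptor for reelin and apolipoprotein E, stood at 271, 721, 682, 219, 276, 273 and 519 CPM, with a ratio of 4.73. Rnase6, an antimicrobial ribonuclease, stood at 180, 155, 353, 406, 638, 843 and 548 CPM. The chemokine Ccl4 stood at 3757, 4565, 3340, 1685, 5519, 5399 and 4064 CPM, against 94.2 to 252 CPM in other kept cells. Its median log2 ratio was 4.27, with 3.70 in the lowest library. Clec10a, a galactose-binding lectin listed here as a cDC marker, was called at 4.18, with 98.3 to 329 CPM in pDCs. Ptprs, a receptor phosphatase, St8sia4, a polysialyltransferase, Sh3bgr, the receptors P2ry14 and Gpr171, and Mzb1, a chaperone of immunoglobulin folding in the endoplasmic reticulum, had ratios of 3.68 to 3.98.

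Of 15 listed transcription factors of the lineage, 14 were compared and 6 were higher, where 1.64% of all genes compared were. Their median log2 ratio was 2.12 beside 0.22 over all genes compared. Tcf4 was at 726, 1336, 1199, 1238, 908, 1307 and 1235 CPM in pDCs and at 55.8, 304, 24.6, 26.8, 152, 177 and 18.2 CPM in other kept cells. The level in pDCs varied less between libraries than that in the other cells. Irf8 was at 1190, 1293, 870, 1830, 1745, 2030 and 1711 CPM and Runx2 at 112, 204, 423, 422, 402, 456 and 292 CPM, with median log2 ratios of 3.88 and 4.65. Spib was at 383, 1300, 1105, 232, 388, 396 and 702 CPM with a ratio of 4.50, highest in NEJ638. Bcl11a at 3.46 and Xbp1, the transcription factor of secretory cells, at 3.04 completed the calls. Xbp1 was highest in NEJ638 at 1665 CPM and lowest in NEJ654 at 437 CPM. Mef2c at 319 to 977 CPM, Zeb2 at 94.1 to 296 CPM, Irf7 at 58.0 to 306 CPM and Ets1 at 47.0 to 230 CPM were not called, nor was Nfil3, at 0 to 33.9 CPM.

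Of 8 listed factors of conventional dendritic cells (cDCs), 4 were compared with other kept cells, 0 were called, and the median log2 ratio was 0.44 beside 0.22 over all genes. The ratio was 1.71 for Irf4, 1.62 for Bhlhe40 and -0.74 for Klf4, which stood at 30.5 to 118, 70.4 to 211 and 20.3 to 74.7 CPM in pDCs. Batf3, needed for cross-presenting cDCs, was at 6.78, 13.2, 0, 0, 2.87, 3.87 and 0 CPM in pDCs. Zbtb46, a factor that marks the cDC lineage, was at 0 to 21.3 CPM. Id2, an inhibitor of E proteins such as TCF4, was at 136, 125, 141, 74.5, 31.6, 61.9 and 21.9 CPM in pDCs, with a median log2 ratio of -1.75. Of 7 listed cDC markers, 4 were compared and 1, Clec10a, was higher, where 1.64% of all genes compared were. Their median log2 ratio was 2.13. Xcr1, a chemokine receptor of cross-presenting cDCs, was the 1 of these markers with 0 UMIs in pDCs of all 7 libraries.

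Tlr7 stood at 40.7, 82.3, 47.0, 58.0, 23.0, 67.7 and 43.9 CPM in pDCs, against 2.81 to 11.8 CPM in other kept cells of the same libraries, and its median log2 ratio was 1.93. Tlr9 stood at 0, 9.87, 0, 8.28, 2.87, 13.5 and 14.6 CPM, a few UMIs at most in each library, and is not read further. Of 17 genes of nucleic acid sensing, 12 were compared and 2 were higher, where 1.64% of all genes compared were, and the median log2 ratio was 0.95 beside 0.22 over all genes. These were Slc15a4, a lysosomal transporter needed for TLR7 and TLR9 signals, at 88.2 to 259 CPM with a ratio of 2.48, and Pld4, a lysosomal exonuclease, at 305 to 894 CPM with a ratio of 3.19. Unc93b1, which carries these receptors to endosomes, was at 319, 385, 494, 551, 546, 543 and 826 CPM and was not called because its ratio was 1.52 at the lowest. Among the other Toll-like receptors, Tlr1, Tlr8 and Tlr11 were at 0 UMIs and Tlr4 was at 0 to 2.87 CPM. Tlr12 was at 13.6 to 57.5 CPM in the 6 libraries compared.

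Transcripts of interferons themselves were not detected beyond 1 UMI. Over 20 genes of type I and type III interferons, 1 UMI (of Ifnl3, in NEJ687) was found among the 1884571 UMIs of the 462 cells, and 19 of the 20 genes were at 0. A count of 0 allows up to 5.80 to 70.6 CPM in the libraries with none, at 3 counts per library. Of 28 interferon-response genes found in the matrices, 10 were compared and Bst2 alone was called, where 1.64% of all genes compared were higher. Isg15 stood at 78.0, 49.4, 47.0, 12.4, 103.5, 133 and 21.9 CPM in pDCs and at 65.9 to 570 CPM in other kept cells, which were higher in every library but NEJ634. Oas2 was at 0 in pDCs of every library. Ifi27l2a was the exception in level, at 454, 665, 1435, 489, 1440, 1456 and 1111 CPM, with a median log2 ratio of 0.99. The median log2 ratio of the list was 0.46, where that of all genes was 0.22.

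Of 23 listed genes of the secretory pathway, 21 were compared and 1 (Xbp1) was called, where 1.64% of all genes compared were higher. The median log2 ratio was 0.83 beside 0.22 over all genes compared. The ratios of the other 20 lay between 0.15 and 1.67, all above 0. Sec61b, a part of the channel into the endoplasmic reticulum, was at 865, 912, 1388, 1147, 1406, 1228 and 1228 CPM, against 265 to 462 CPM in other kept cells. Sec11c, of the signal peptidase, had the ratio of 1.67. Derl3, a gene of plasma cells, held 1 UMI in NEJ687 and none elsewhere. Of 15 genes of lysosomes and their proteases, 0 were called and the median was 0.21, with Ctsh at 2.27 and Lgmn at -1.59 as the ends. Against B cells and cDC-like cells, both described below, Ctsl at 3.97 and 4 and Grn at 3.93 and 2.81 were called.

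Among the trafficking genes, Ccr9 and Selplg were past 4-fold. Selplg, the ligand of P-selectin, was at 427 to 833 CPM with a ratio of 3.22. Cxcr3, a receptor for inflammatory chemokines, was at 0 to 48.9 CPM and was not called. Ccr7 stood at 0 to 36.5 CPM and S1pr1 at 0 to 13.2 CPM. Of the cytokine receptors, Il7r was the 1 of 9 compared that was called, at 94.1 to 313 CPM. Over all genes compared, 1.64% were higher. Flt3, the receptor that drives dendritic cell development, was at 40.7, 69.1, 188, 170, 80.5, 92.8 and 110 CPM, with a ratio of 2.67 whose lowest library was 1.82. Cd34, a progenitor marker, held 0 UMIs, and Axl, a mark of a related transitional dendritic cell, held at most 7.31 CPM.

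pDCs were next set against the gated B cells, of which each of the 6 libraries held 107 to 1103. Of 4716 genes compared, 75 were higher in pDCs (1.59%) and 25 were lower (0.53%), with a median log2 ratio of 0.04. Among the higher ones were Mpeg1, which encodes the pore protein perforin-2, at 5.53, Ccl4 at 5.46, Ly6c2 at 5.26, Cd7 at 5.08, Lair1 at 4.94, Runx2 at 4.92 and the signalling adaptor Tyrobp at 4.87. Of the lineage factors, Runx2, Irf8 and Xbp1 were higher than in B cells, while Tcf4 at 2.68, Spib at 1.64 and Bcl11a at 1.05 were not past 4-fold in every library.

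Among the genes lower than in B cells, Cd79a, Cd79b and Ms4a1 helped to choose the B cells and are no finding. Ebf1, a factor that commits cells to the B lineage, was at 27.1, 3.29, 0, 24.8, 8.62, 9.67 and 0 CPM in pDCs with a ratio of -6.10, and Pax5 was at 0 to 4.14 CPM with a ratio of -4.04. Vpreb3 at -5.25, Iglc1 at -5.14, Gm8369 at -4.53, Igkc at -4.43 and Fcmr, the receptor for IgM, at -4.41 were also called. Of 22 genes of the lymphoid and pre-B list, 16 were compared with B cells, 10 were lower and 0 higher. The 10 include Cd79a, Cd79b and Ms4a1, which helped to choose the B cells. Over all genes compared, 0.53% were lower and 1.59% higher.

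A few genes of several lists, picked here for their small ratios, were nonetheless at levels near those of B cells. The lymphoid and pre-B list as a whole had a median log2 ratio of -4.24 to B cells over the 16 genes compared. Ly6d had a median log2 ratio of 0.24 to B cells, Blnk, an adaptor of the B-cell receptor, 0.20, Mzb1 -0.06, Mef2c -0.09 and Iglc3, a constant segment of the lambda light chain, -0.07. Iglc3 stood at 163, 280, 235, 178, 604, 601 and 358 CPM in pDCs and at 171 to 685 CPM in B cells of the 6 libraries. In contrast, Igkc stood at 129, 194, 47.0, 244, 181, 261 and 43.9 CPM in pDCs and at 1997 to 9724 CPM in B cells. Iglc2 was lower than in B cells at -3.41 and Iglc1 at -5.14, so the lambda segments did not move together, and reads can be split among these similar segments. Ighm, the heavy chain of IgM, stood at 332 to 783 CPM in pDCs, with a ratio of -1.99 to B cells. Dntt, the polymerase that adds bases to rearranging receptor genes, stood at 30.5, 62.5, 235, 74.5, 63.2, 77.3 and 73.1 CPM in pDCs and at 0.331 to 1.99 CPM in other kept cells. Rag1 held 1 UMI in each of NEJ634 and NEJ677, and Rag2 and Igll1 held none.

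For conventional dendritic cells, a gate on their own 4 genes found 0 to 7 cells per library, too few for a comparison. Cells with Cst3 of at least 1% and genes of MHC class II of at least 1.5% of the base were used instead, a gate chosen after its cell numbers were seen. It found 25 to 246 cells in each of the 6 libraries, called cDC-like here for the cDC markers Xcr1 at 85.0 to 243 CPM, Clec9a at 63.2 to 247 CPM and Wdfy4 at 345 to 478 CPM. Of the other cDC markers, Itgax was at 18.6 to 165.5 CPM, Zbtb46 at 7.43 to 92.2 CPM, Cd209a at 0 to 13.2 CPM and Clec10a at 0 to 6.28 CPM in these cells, and Clec10a was higher in pDCs, with a median log2 ratio of 4.30. Of 4457 genes compared with them, 71 were higher in pDCs (1.59%) and 29 were lower (0.651%), with a median log2 ratio of 0.26. Ly6d at 6.87, Spib at 5.19, Atp1b1 at 5.02, Ly6c2 at 5.02, Cd7 at 4.98, Gm21762 at 4.95, Mzb1 at 4.94, Iglc3 at 4.81, Tcf4 at 4.71 and the phospholipid transfer protein Pltp at 4.62 were the highest outside the gate. Blnk, Il7r, Ighm and Iglc3 were the 4 of 6 compared lymphoid genes that were higher, where 1.59% of all genes compared were.

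Lower than in the cDC-like cells were Plbd1 at -5.06, Naaa at -4.93, Ifi205 at -4.42, Ckb at -4.15, Xcr1 at -4.03, Bcl2a1d and Jdp2 at -4.02, Cd83 at -3.70 and Havcr2, which encodes TIM-3, at -3.66. Plbd1, a lysosomal phospholipase, stood at 0 to 57.6 CPM in pDCs and at 634.2 to 989.9 CPM in the cDC-like cells. Id2 was lower at -3.36, with 440 to 1607 CPM in the cDC-like cells. Irf8 at 1.31 and Flt3 at -0.59 were not called, and both are known to serve each lineage. Cst3 and the MHC class II genes chose these cells and are no finding between them.

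Antigen presentation was therefore read against all other cells and against B cells. Cd74, the invariant chain of MHC class II, was at 1594, 2649, 2328, 1644, 4611, 4062 and 5585 CPM in pDCs, against 211 to 1816 CPM in other kept cells and 2216 to 10974 CPM in B cells. H2-Aa was at 400, 1050, 1388, 456, 1015, 1222 and 1455 CPM. The median log2 ratio of the 8 listed genes compared with other kept cells was 1.46 with 0 called. Against B cells it was -0.82 over 12 genes with H2-Ob alone called, lower at -3.85. Over all genes compared with B cells, 0.53% were lower. NEJ634 and NEJ723 held the lowest levels of Cd74 and H2-Aa. The costimulatory genes Cd80, Cd40 and Cd86 were at 0 to 10.2, 0 to 3.39 and 0 to 26.3 CPM.

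**Figure D3:**
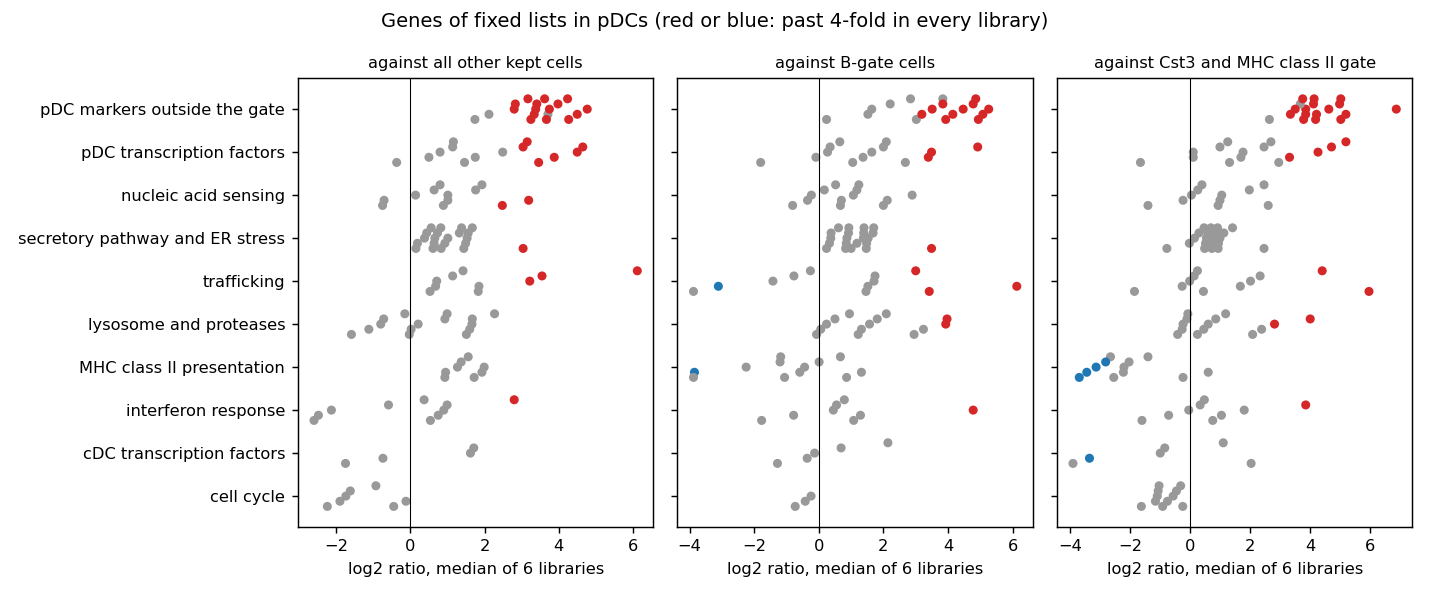
Median log2 ratio over 6 libraries of the genes of 10 lists that were compared, in pDCs against all other kept cells, against gated B cells and against the gate on Cst3 and MHC class II, with genes past 4-fold in every library in red (higher) or blue (lower). The pDC markers lay mostly between 2 and 5 in all 3 panels, and MHC class II genes lay above 0 against all other cells and mostly below 0 against the cells gated on them.

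The 3 comparisons share the pDCs and are not independent. Of the genes higher in each, 26 were common to all, 34.2% of the 76, 34.7% of the 75 and 36.6% of the 71. The 4 gate genes were among the 26. Of the others, Bst2, Cd209d, Cd300c, Cd4, Cd7, Lair1, Ly6c2, Pacsin1, Smim5, Runx2, Klk1b27 and Clec10a were on the lists, and Lrp8, Sh3bgr, Gm21762, Slamf9, Lefty1, Sla2, Rell1, Tex2, Tubgcp5 and Gm5547 were not. Runx2 was the transcription factor of the lineage list among them. Lefty1, an inhibitor of Nodal signalling, had median log2 ratios of 3.32, 3.92 and 3.76 against other kept cells, B cells and cDC-like cells.

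The promoters of these genes were searched for the same letters on both strands. RefSeq held a promoter for 55 of the 76 genes higher than in all other kept cells, and 41 of the 55 (74.5%) held an E-box, against 66.0% of all 27025. CACCTG was in 27.3% of the 55 and 17.1% of all, CAGCTG in 9.09% and 12.8%, and GGAA, the core recognised by factors such as SPIB, was in 96.4% and 93.4%. Among the 18 promoters of the 26 genes, 13 held CANNTG.

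Detection in single cells was compared after thinning each cell to 1000 UMIs, over the 462 pDCs, 2962 B cells, 2086 T cells and 486 cDC-like cells of all libraries. These shares pool libraries of unequal make-up: NEJ634 gave 105 of the pDCs, 107 of the B cells, 200 of the T cells and 246 of the cDC-like cells. Their intervals cover counting error only and not the spread between libraries. The exocrine-led cells are among the pDCs. Siglech was found in 72.1% of pDCs (exact 95% binomial interval 67.7 to 76.1%, and 93.5% before thinning), in 0.169% of B cells and in 0.0479% of T cells. Bst2 was found in 89.2% of pDCs and in 10.0%, 12.5% and 19.1% of B, T and cDC-like cells. Cox6a2 was found in 63.4% of pDCs, 0.101% of B cells and 0 of the 2086 T cells. Tcf4 was found in 60.2% of pDCs (55.5 to 64.7%) and 14.3% of B cells (13.1 to 15.6%), and Runx2 in 22.1% and 0.101%. The gate used Siglech and Cox6a2.

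Ly6d was found in 52.6% of pDCs and 61.6% of B cells, Spib in 35.3% and 13.8%, and Blnk in 16.9% and 15.4%. Irf8 was found in 69.7% of pDCs and 35.0% of cDC-like cells. Cd7 was found in 35.7% of pDCs and 24% of T cells, and Il7r in 14.5% and 17.2%. Tlr7 and Dntt were each found in 5.84% of pDCs (3.89 to 8.39%), against 0.776% and 0.641% of B cells. Between libraries, Tcf4 was found in 33.3% of the gated cells of NEJ634 and in 61.5 to 71.6% in the 5 other libraries with at least 20, and Bst2 in 70.5% against 88.2 to 100%.

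**Figure D4:**
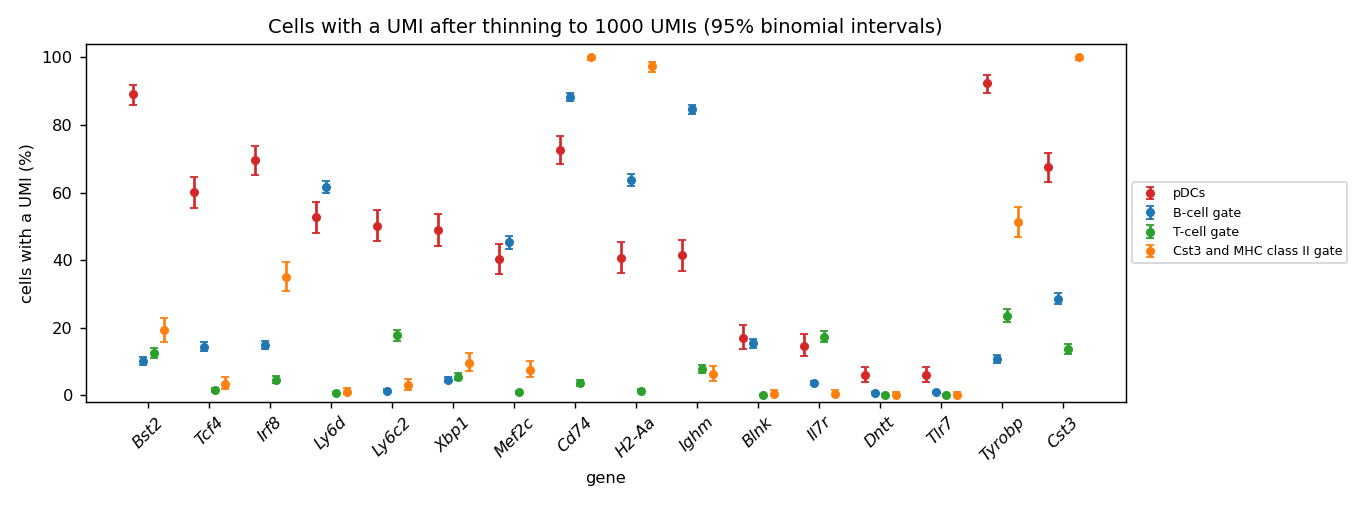
Share of cells with a UMI of 16 genes (%, after thinning each cell to 1000 UMIs) in pDCs, gated B cells, gated T cells and cells gated on Cst3 and MHC class II, with exact 95% binomial intervals. The intervals pool all libraries and do not cover the spread between them. pDCs stood highest for Bst2 at 89.2% and Tcf4 at 60.2%, and close to B cells for Blnk at 16.9% and 15.4%.

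The share of a gene's UMIs in kept cells that lay in gated cells was averaged over libraries with equal weight. For the gate genes, where the rule itself sets this share, 71.0% of Siglech, 66.4% of Ccr9, 67.3% of Cox6a2 and 76.2% of Klk1 lay in gated cells, which held 0.0605 to 1.73% of all UMIs of a library. Of the genes outside the gate, Try4, Reg2 and Reg3a ranked first, at 81.0 to 85.4%, through the exocrine-led cells of NEJ638. They were followed by Gm21762 at 73.0%, Pgam2 at 71.2%, Klk1b27 at 67.6%, Sh3bgr at 59.4%, Cd300c at 59.2%, Havcr1 at 56.1% and Foxr1 at 49.7%. Pgam2, the muscle form of phosphoglycerate mutase, stood at 37.3, 16.5, 0, 91.1, 115, 63.8 and 146 CPM in pDCs and at no more than 0.186 CPM in other kept cells. The share of its UMIs that lay in pDCs was 37.9, 100, 0, 88.0, 97.6, 91.7 and 83.3%. Foxr1, a forkhead factor, stood at 10.2, 6.58, 165, 70.4, 37.4, 50.3 and 43.9 CPM.

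The genes that differed most between libraries in the gated cells included genes of other cell types. By the rule on the ratio of highest over lowest library, the 10 widest were exocrine genes in NEJ638, led by Ctrb1 at 8155 CPM with the 7 cells and 14.3 CPM without them, and by Try4, Clps, Cela2a, Reg1, Prss2, Reg3b, Reg2, Cela3b and Cpb1. Without those cells the widest were Xist, the granule protease genes Elane, Prtn3 and Ctsg, the platelet gene Pf4, the histone genes Hist1h2ap and Hist1h2ae, Ppfia4, Vwf and Bcl2l11. Elane stood at 678 CPM in NEJ634 and at 0 in the other 6, and Mpo at 312 CPM in NEJ634. The 292 UMIs of Elane and Mpo in NEJ634 lay in 14 of its 105 members, of which 7 held 5 or more, and 4 of those 7 also held Siglech. Pf4 was highest in NEJ687 at 672.5 CPM, where 1 of the 31 members held 87 of its 92 UMIs, and reached 153 CPM in NEJ723, the next highest. Ppfia4, a liprin, was at 57.6, 0, 23.5, 116, 80.5, 236 and 154 CPM, above the 0.214 to 10.1 CPM of other kept cells except in NEJ638. Bcl2l11, which encodes the death-promoting protein BIM, was at 468, 1672, 706, 472, 253, 139 and 541 CPM in pDCs and at 97.1, 148, 63.2, 56.1, 66.4, 64.1 and 61.3 CPM in other kept cells.

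Summed levels of the markers of other lineages are given as measured, and their part in the results above was not tested except where a value without the library is printed. The 10 neutrophil markers reached 17468, 49.4, 4563, 6477, 11.5, 7.73 and 344 CPM in pDCs, against 1413 to 60845 CPM in other kept cells, and over 5% of the UMIs of 14 members of NEJ634 came from them. In NEJ709 and NEJ723 only 1 member each was over 5%, at 7.99 and 13.6%, and the medians were 0.0689 and 0.0317%. The 10 erythroid markers reached 40924, 10094, 9384, 19529, 486, 5955 and 5614 CPM, against 56880 to 278008 CPM. The 10 hepatocyte and hepatoblast markers reached 282 to 4307 CPM, against 2275 to 14021 CPM, and the 8 Kupffer cell markers 16.6 to 1065 CPM, against 657 to 6745 CPM, both highest in NEJ634 among the pDCs.

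The 7 B-cell markers summed to 23.5 to 120 CPM in pDCs and 56.9 to 640 CPM in other kept cells, the 7 T-cell markers to 29.0 to 102 and 70.5 to 390 CPM, and the 7 NK-cell markers to 0 to 204 and 97.1 to 424 CPM, with Ncr1, Klrb1c and Eomes at 0. The 7 plasma cell markers summed to 309 to 664 CPM, against 27.8 to 406 CPM in other kept cells and above them in each library, nearly all of it Mzb1 and Iglc2, with Jchain at 0. The 7 cDC markers summed to 200.1 to 588 CPM, against 23.4 to 129 CPM and again above them in each library, led by Clec10a. The 7 monocyte markers summed to 600.4 to 1961 CPM, against 827 to 2614 CPM, led by Ly6c2, which pDCs are known to express, except in NEJ634, where Lyz2 was higher at 749 CPM. The 7 endothelial markers reached 1632 CPM in NEJ677, 813 CPM in NEJ638 and 604 CPM in NEJ654, with 124 to 165 CPM in the other 4, against 48.6 to 4075 CPM in other kept cells. The 5 megakaryocyte markers stood at 0 to 863 CPM, against 77.0 to 135 CPM, the 6 mesenchymal markers at 0 to 128 CPM, against 6.89 to 403 CPM, with Pdgfrb at 0, and the 6 basophil and mast cell markers at 0 to 47.5 CPM, against 42.7 to 148 CPM, with Mcpt8, Fcer1a, Cpa3 and Ms4a2 at 0.

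**Figure D5:**
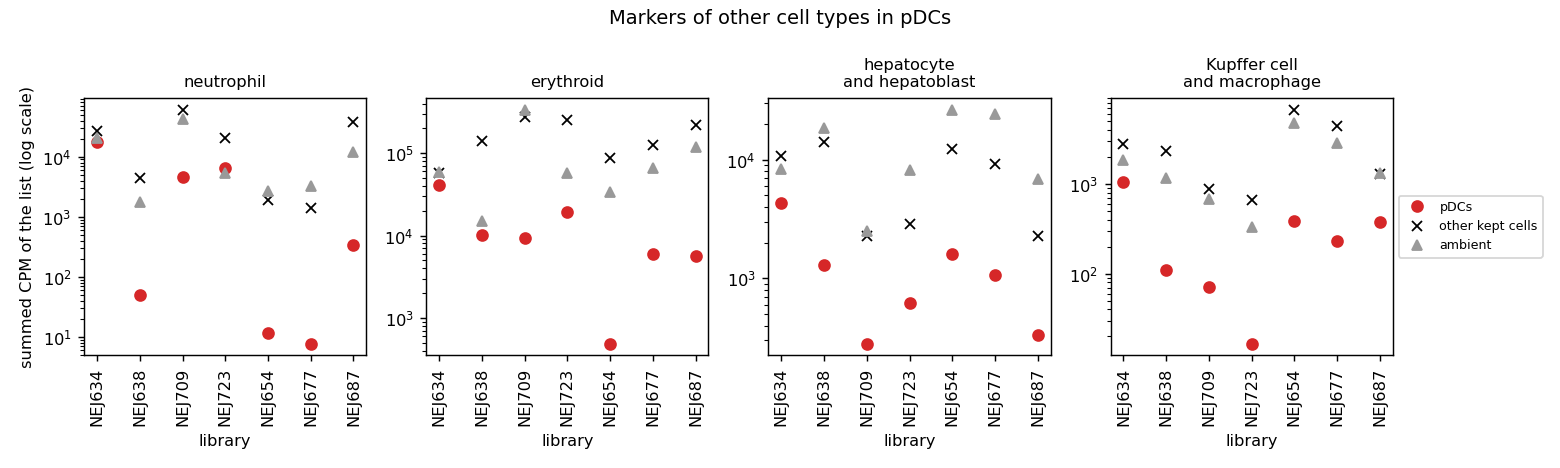
Summed level in CPM (log axis) of the marker lists of neutrophils, erythroid cells, hepatocytes and hepatoblasts, and Kupffer cells in the pDCs, the other kept cells and the barcodes too small to be cells (ambient) of each library. pDCs lay lowest in most libraries, and in NEJ634 they came closest to the other cells, at 17468 CPM of neutrophil and 40924 CPM of erythroid markers.

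Cell cycle genes were low outside NEJ634. With 5 such genes after thinning, at least 2 UMIs were found in 16 of 105 gated cells of NEJ634 (15.2%), in 1 of 102 of NEJ638, 0 of 5 of NEJ709, 1 of 39 of NEJ723, 2 of 80 of NEJ654, 0 of 100 of NEJ677 and 1 of 31 of NEJ687. In the same library, 12.1% of B cells, 25% of T cells and 22.8% of cDC-like cells of NEJ634 met this limit. Mki67, a protein of dividing cells, stood at 251, 19.7, 0, 24.8, 46.0, 3.87 and 29.2 CPM in pDCs. Of 20 cell cycle genes, 7 were compared with other kept cells, 0 were called and the median log2 ratio was -1.62. In NEJ634 the 20 genes summed to 1774 CPM in pDCs, 2200 CPM in other kept cells and 1860 CPM in the ambient barcodes. The sum in pDCs was below that in the ambient barcodes in every library. The part of ambient RNA in the counts of NEJ634 was not tested.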

How the data were processed

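The 7 libraries were made with a 10x Genomics 3′ kit and sequenced by the authors, who deposited unnormalized UMI counts for every listed barcode, cells and empty droplets alike. The labels and the study's methods name Cell Ranger 6.0, the latter with intronic reads counted, and the file headers name Cell Ranger 4, so the release is not settled, and the genome build is not given in the sources used here. The matrices listed 32285 genes. Before any filter the libraries held 40214395 to 132485391 UMIs.

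Barcodes were selected by the stated gate in Python 3.11.15 (numpy 2.4.6, scipy 1.17.1, pandas 2.3.3). No doublet caller was run. Counts were summed per library and set of cells, CPM were given exact 95% Poisson intervals, and shares exact binomial (Clopper-Pearson) intervals. Both cover counting error only, and cells of a library are not replicates. Ambient RNA was taken from barcodes ranked 45000 to 90000 by UMIs. The size of these barcodes differed between libraries, so the ambient values are not fully alike. Named genes were those of 31 lists (357 of 359 symbols found, not Mx1 and Mx2), the 20 highest and 10 lowest called genes against all other kept cells, the 10 highest and 10 lowest against each other set, the 10 widest between libraries (at least 50 CPM in a library, 2-fold over ambient and other cells there) and the 10 most restricted to pDCs (at least 50 UMIs). The members and lists were chosen with earlier results of these data known. The scripts were tested on simulated data. Promoter sequences are from RefSeq (GRCm38.p6), with no entry for Cox6a2, and cover 250 bases before the start. Because the planned cDC gate found too few cells, a gate on Cst3 and MHC class II took its place. Alternatives are described in the closing section. Some genes of the gates and lists are not reported here.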

Additional observations from a re-analysis of the deposited data

How the results depend on the processing

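The number of pDCs lay between 354 and 525 over 15 other settings of the gate and filters, where the gate gives 462. NEJ634 moved most, from 33 cells with at least 8 gate UMIs to 166 with at least 3. The median number of pDCs per 100 B cells was 17.2 with a UMI minimum of 2000, where it was 11.2 at 1000. The ratio of highest over lowest share was 17.3 with a mitochondrial limit of 10% and 6.19 without NEJ709, where it was 68.7. The counts of called genes depended on the pseudocount. Against all other kept cells, 76 genes were called at 10 CPM, 129 at 1 CPM and 14 at 50 CPM, and 131 without NEJ634. Against B cells the counts were 100, 175 and 27, and against the cDC-like cells 100, 179 and 31. No named gene changed direction. Of the log2 ratios of named genes under other settings, 751 stayed past 4-fold in every library and 29 did not. The genes counted here were chosen for being past 4-fold in every library. Leaving out a library, dropping the filter on low levels or a pseudocount of 1 CPM could therefore not undo a call. Those settings are among the 751 and are no check. With haemoglobin as the measure, the estimated share of ambient RNA among the UMIs of pDCs was 68.5% in NEJ634, 68.45% in NEJ638, 34.0% in NEJ723 and 1.45 to 9.08% in the other 4 libraries. These shares are of pooled members, and erythroid markers passed 5% of the UMIs in 39 of 105 members of NEJ634, 2 of 102 of NEJ638 and 4 of 39 of NEJ723, with medians of 2.26, 0.0967 and 0.404%. Subtracting the ambient profile at these shares moved 135 of 406 levels beyond their counting interval. In NEJ634 the ambient barcodes were the largest and may include cells. Without thinning, 284 of 406 shares of cells moved, at a median of 2.56 times the thinned share. The gates on Cst3 and MHC class II, the limits on exocrine cells and the settings without NEJ634 or NEJ709 were chosen after seeing the data. No paired analysis was possible because the labels give neither groups nor replicate numbers. Depth limits low genes most in NEJ709, where 3 counts amount to 70.6 CPM.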

Other observations

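Genes of the sex chromosomes divided the libraries in the gated cells. Xist, the RNA of the inactive X chromosome, stood at 916, 2093, 0, 0, 1021, 0 and 0 CPM in NEJ634, NEJ638, NEJ709, NEJ723, NEJ654, NEJ677 and NEJ687, and the Y-linked gene Ddx3y at 0, 0, 118, 74.5, 0, 96.7 and 110 CPM. No library held both genes in its pDCs. In other kept cells of NEJ634, NEJ638 and NEJ654, Xist stood at 505, 1203 and 482 CPM.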
